A study of Mus musculus with 12 samples.

Results

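Small RNA sequencing pipelines report 2 kinds of miRNA, those already curated and those predicted from the reads themselves. The deposited count table of this series held 1549 rows. Of these, 1366 carried a curated mouse name beginning with mmu-, and 183 carried a name of the form novel_ followed by a number. The 183 predicted rows were taken by that prefix alone, without regard to their values, and are described here across all 12 libraries and 5 groups. The groups were the androgenetic haploid embryonic stem cell (ESC) lines A129-2 and A129-17 with 2 libraries each and A129-6 with 3, the diploid ESC line R1 (2 libraries) and round spermatids, written RS (3 libraries). All were labelled wild type and collected by sorting. Androgenetic haploid ESC carry a single chromosome set of paternal origin, and per the labels' protocols they grew with LIF, a MEK inhibitor and a GSK3 inhibitor and were enriched for haploid cells from time to time by Hoechst sorting. Spermatids, the haploid cells formed by meiosis in the testis, were sorted from 129Sv males. Replicates were described as independent sorts. Their source in separate cultures or mice is not stated in the labels, so each SD and p-value reflects only how these libraries varied, which may be technical. With 1 diploid line, a difference from R1 cannot be told apart from a difference from diploid ESC in general.

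A miRNA is cut from a hairpin in a longer transcript, in most cases by Drosha in the nucleus and then by Dicer in the cytoplasm, and guides an Argonaute protein to messenger RNAs that pair with its seed. A predicted miRNA is a stretch of genome with a stack of reads whose flanks can fold into such a hairpin. Fragments of transfer RNA, ribosomal RNA, messenger RNA or repeats can pass the same computational test, so a predicted row names a candidate and not an established miRNA. The program behind these predictions, the genome build it used and its score cutoff are not stated in the labels.

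Sequences and genome positions of the predicted rows were not used here, and the curated miRNAs that followed the same profile can be shown in their place. For the 3 predicted rows of highest mean level, the 3 curated miRNAs with the highest Pearson r of log2(CPM + 1) over the 12 libraries were looked up, where CPM is a row's count per 1000000 counts of the library. Such an r describes the likeness of 2 profiles, and here it rests mostly on which group is high. All 9 were matched by name in RefSeq (GRCm38.p6, which may not be the build of the files). The mature sequences are given 5′ to 3′ with the seed, bases 2 to 8, in capitals, to show that these profile neighbours had 9 distinct seeds. The neighbours miR-380-5p and miR-379-3p of novel_64 lie near each other on the same strand of chromosome 12, in the imprinted miRNA cluster of that chromosome.
novel_697 was closest to miR-7223-5p (r = 0.9996, chromosome 11, 107996848 to 107996867, plus strand), miR-7230-5p (r = 0.9992, chromosome 5, 113337623 to 113337645, minus strand) and miR-7214-3p (r = 0.9990, chromosome 17, 27317035 to 27317058, minus strand).
miR-7223-5p: uAGCUUUGcugaggugucgg
miR-7230-5p: aGACUGCUguuucucugaguggc
miR-7214-3p: cUCAGUCCugaccccuugagcgca
novel_213 was closest to miR-7234-5p (r = 0.99997, chromosome 7, 73819590 to 73819612, plus strand), miR-12198-3p (r = 0.9994, chromosome 5, 32092765 to 32092783, plus strand) and miR-468-5p (r = 0.9988, chromosome 6, 81896629 to 81896655, minus strand).
miR-7234-5p: uUGUUUUCuccaaagacguuucu
miR-12198-3p: gACUCAGGaggacugccgg
miR-468-5p: gACUGAUGuacugauaagaaacucagu
novel_64 was closest to miR-380-5p (r = 0.972, chromosome 12, 109711806 to 109711827, plus strand), miR-379-3p (r = 0.968, chromosome 12, 109709102 to 109709123, plus strand) and miR-293-5p (r = 0.959, chromosome 7, 3220356 to 3220377, plus strand).
miR-380-5p: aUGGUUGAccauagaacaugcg
miR-379-3p: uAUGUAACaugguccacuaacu
miR-293-5p: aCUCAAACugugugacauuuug
The 6 neighbours of novel_697 and novel_213 had 0 counts in every ESC library, as did both predicted rows themselves. Of the neighbours of novel_64, miR-380-5p had 4290 counts in R1, 435 in the haploid lines and 1 in RS.

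Counted reads ran from 3709786 to 9102467 in the haploid libraries and were 7632174 and 9176080 in R1, against 155232 to 243714 in RS. The shallow spermatid libraries therefore limit every statement on absence there: 0 counts over the 3 RS libraries allow up to 5.30 CPM (3 counts of the pooled total), against 0.178 CPM in R1 and 0.0651 CPM in the haploid lines together. The labelled cell types were checked against marker miRNAs. The 16 pluripotency markers summed to 497049 to 653802 CPM in the haploid libraries and 441941 to 450352 in R1, and to 94.4 to 6017 in RS, where miR-302a-3p and miR-302c-3p were at 0. The 10 markers of meiotic and postmeiotic germ cells summed to 294948 to 400426 CPM in RS, 2835 to 11745 in the haploid libraries and 1157 to 1222 in R1. Spermatid libraries also held more of the 6 blood and endothelial markers (1288 to 13397 CPM, against 352 to 850 in the haploid libraries) and of the gonadal miR-202 arms (90.0 to 142 CPM, against at most 0.412). The 6 markers of differentiated lineages summed to 21423 to 36577 CPM in RS, 3318 to 3367 in R1 and 647 to 1094 in the haploid libraries, with no overlap. The 6 mesenchymal markers, which feeder cells would carry, stood at 469 to 2080 CPM in the haploid libraries, 2049 to 2230 in R1 and 3869 to 10069 in RS.

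Predicted rows took a very small share of the counted reads, 8696 counts in all 12 libraries together. As a share of all counted reads they were highest in spermatids, lower in R1 and lowest in the haploid lines. A129-2 had 0.0160% and 0.00801% in replicates 1 and 2. A129-6 had 0.00878%, 0.0108% and 0.00853% in replicates 1 to 3, and A129-17 had 0.0107% and 0.0116%. R1 had 0.0220% and 0.0219%. RS had 0.0439%, 0.0722% and 0.0834%. The 95% Clopper-Pearson interval, which covers counting error only, was 0.0360% to 0.0531% for the lowest spermatid library and 0.0210% to 0.0231% for the highest R1 library. No haploid library reached an R1 library, and no R1 library reached a spermatid library. The haploid libraries had a mean of 0.0106% ± 0.0027 (SD, n = 7). R1 had 0.0220% ± 6.97e-05 (n = 2), and spermatids had 0.0665% ± 0.0203 (n = 3). The exact two-sided permutation test over libraries gave p = 0.0556 for haploid against R1, p = 0.0167 for haploid against RS and p = 0.2 for R1 against RS, each the smallest that its design allows. Adjusted over the 3 comparisons by Benjamini-Hochberg these were 0.0833, 0.05 and 0.2 (exact permutation), none below 0.05. The 7 haploid libraries come from 3 lines, so they are not independent lines.

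The denominator moved with the groups as well. The miR-290 cluster, whose miRNAs dominate naive mouse ESC, held 64.1% to 77.1% of counts in the haploid libraries, 49.1% and 50.2% in R1, and 0.00985%, 0.678% and 0.0432% in RS replicates 1, 2 and 3. Relative to the counts outside this cluster, predicted rows took 0.0302% to 0.0462% in the haploid libraries, 0.0433% and 0.0440% in R1 and 0.0439% to 0.0834% in RS. On that base the libraries of all 3 kinds of cell overlapped, since RS replicate 1 (0.0439%) lay below R1 replicate 2 (0.0440%) and below the highest haploid library. The lack of overlap given above thus rests on the full denominator, while the group means kept their order at smaller differences. The difference in means went from -0.0113 to -0.00509 percentage points for haploid minus R1, from -0.0558 to -0.0281 for haploid minus RS and from -0.0445 to -0.0230 for R1 minus RS (exact permutation, adjusted p = 0.556, 0.2 and 0.556). Predicted counts also changed little with depth among the haploid libraries: they ran from 594 to 737 counts while the libraries' totals ran from 3709786 to 9102467. In R1 they were 1681 and 2012.

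**Figure D1:**
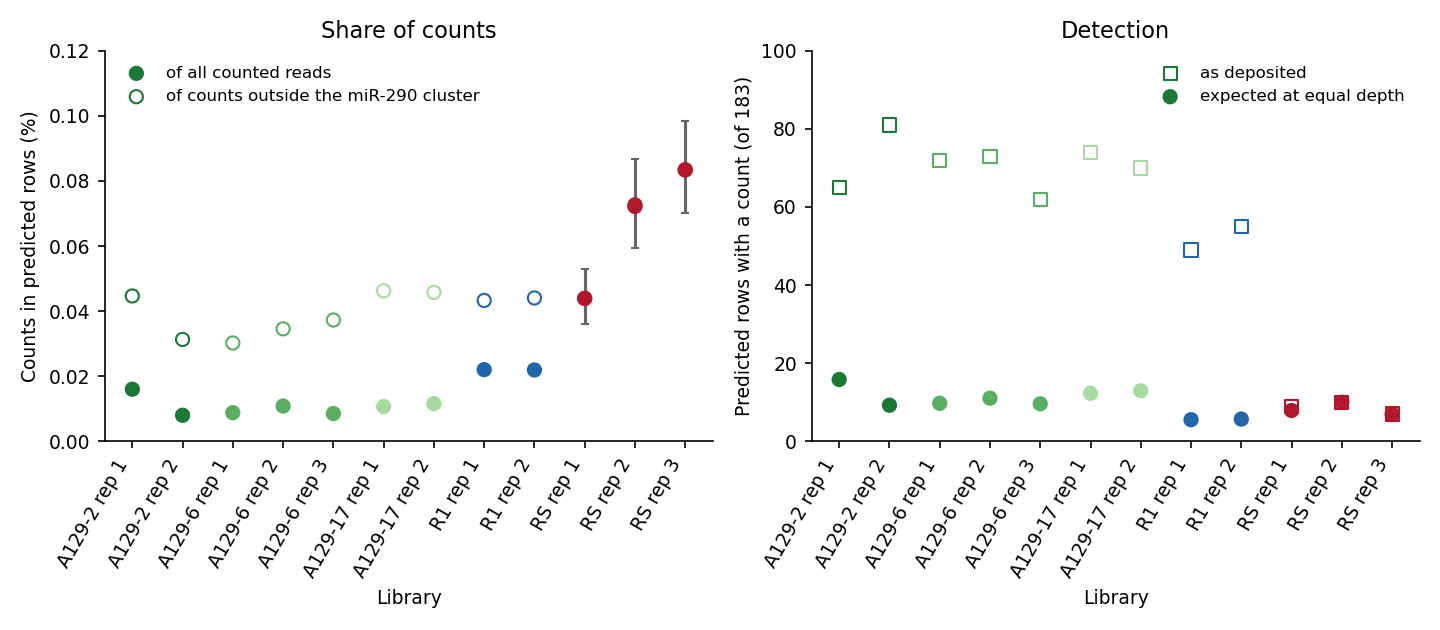
Left, percent of counts in the 183 predicted rows for each library, of all counted reads (filled circles, with 95% Clopper-Pearson intervals) and of counts outside the miR-290 cluster (open circles, which lie under the filled ones in RS). Right, number of predicted rows with a count, as deposited (squares) and after thinning each library to 155232 counts (circles); the haploid libraries detected 62 to 81 rows as deposited and 9.24 to 15.8 at equal depth.

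A few rows carried most of these counts. novel_64 alone held 28.5% of all counts in predicted rows, novel_64 and novel_99 together 49.6%, and the 10 rows with most counts 68.8%. The median predicted row had 10 counts summed over the 12 libraries, against 66.5 for rows named mmu-. Fewer than 10 counts were found for 85 predicted rows (46.4%) and 350 mmu- rows (25.6%), and at least 100 counts for 10 predicted rows (5.46%) and 645 mmu- rows (47.2%). The mean CPM over the 5 groups reached 10 for 7 predicted rows, and 100 for 0.

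The haploid lines detected more predicted rows than R1 or spermatids. As deposited, A129-2 had 65 and 81 rows with a count, A129-6 had 72, 73 and 62, and A129-17 had 74 and 70, beside 49 and 55 in R1, and 9, 10 and 7 in RS. Because detection rises with depth, the number expected after thinning each library to the total of the smallest, 155232 counts, was computed from the hypergeometric formula. It was 15.8 and 9.24 for line A129-2, 9.74, 11.0 and 9.61 for line A129-6, 12.3 and 12.9 for line A129-17, 5.54 and 5.69 in R1, and 7.89, 10 and 6.93 in RS. At equal depth the haploid libraries thus lay above both R1 libraries, and the spermatid libraries lay above R1 and overlapped the haploid libraries. The exact permutation test gave p = 0.0556 for haploid against R1, the smallest this design allows, p = 0.0667 for haploid against RS and p = 0.2 for R1 against RS (adjusted over the 3, 0.1, 0.1 and 0.2). mmu- rows did not show this spread: 475 to 564 were expected in the haploid libraries, 520 and 527 in R1 and 451 to 533 in RS. The higher number of the haploid lines came from rows with 1 or 2 thinned counts. When at least 3 counts were asked for, the difference turned to -0.834 rows for haploid minus R1 and to -4.30 rows for haploid minus RS (exact permutation, adjusted p = 0.2 and 0.05).

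Most predicted rows were seen in few libraries. A count in only 1 library was found for 50 of 183 rows, and 1 row, novel_221, had a count in all 12. Single-library predicted rows held more counts each than single-library mmu- rows. They held 1 to 12 counts with a median of 7, and 40 of the 50 had at least 6. The 152 single-library mmu- rows held 1 to 6 counts with a median of 2, and 2 of them had 6. Of the 50 predicted rows, 17 were in A129-17 replicate 1, 9 in A129-17 replicate 2 and 8 in A129-6 replicate 3. R1 replicates 1 and 2 held 1 and 2 such rows, and RS held 0.

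The same held at like counts, in a tally chosen after the values were seen and given with no test. Predicted rows are listed because reads formed a stack, whereas mmu- rows are named beforehand. The 2 kinds are thus not selected alike, and the part of that selection in the differences above and below was not tested. Among rows with 5 to 9 counts summed over the 9 ESC libraries, all counts lay in 1 library for 36 of 71 predicted rows (50.7%) and 9 of 131 mmu- rows (6.87%). With 10 to 19 counts these were 4 of 50 and 0 of 121, and from 20 counts upward 0 in both kinds. Replicates were compared in the same way. A row with 5 to 9 counts in a group was present in every replicate of the group in 32 of 144 cases for predicted rows (22.2%) and in 273 of 512 for mmu- rows (53.3%). With 20 to 49 counts these were 34 of 39 (87.2%) and 438 of 454 (96.5%), and with 50 or more 18 of 18 and 2320 of 2322. In A129-17, of 53 predicted rows with 5 to 9 counts 9 were in both libraries, against 42 of 103 mmu- rows. In A129-6, which has 3 libraries, 3 of 49 were in all of them, against 23 of 106. In A129-2 these were 12 of 31 and 79 of 126, and in R1 8 of 11 and 96 of 108.

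**Figure D2:**
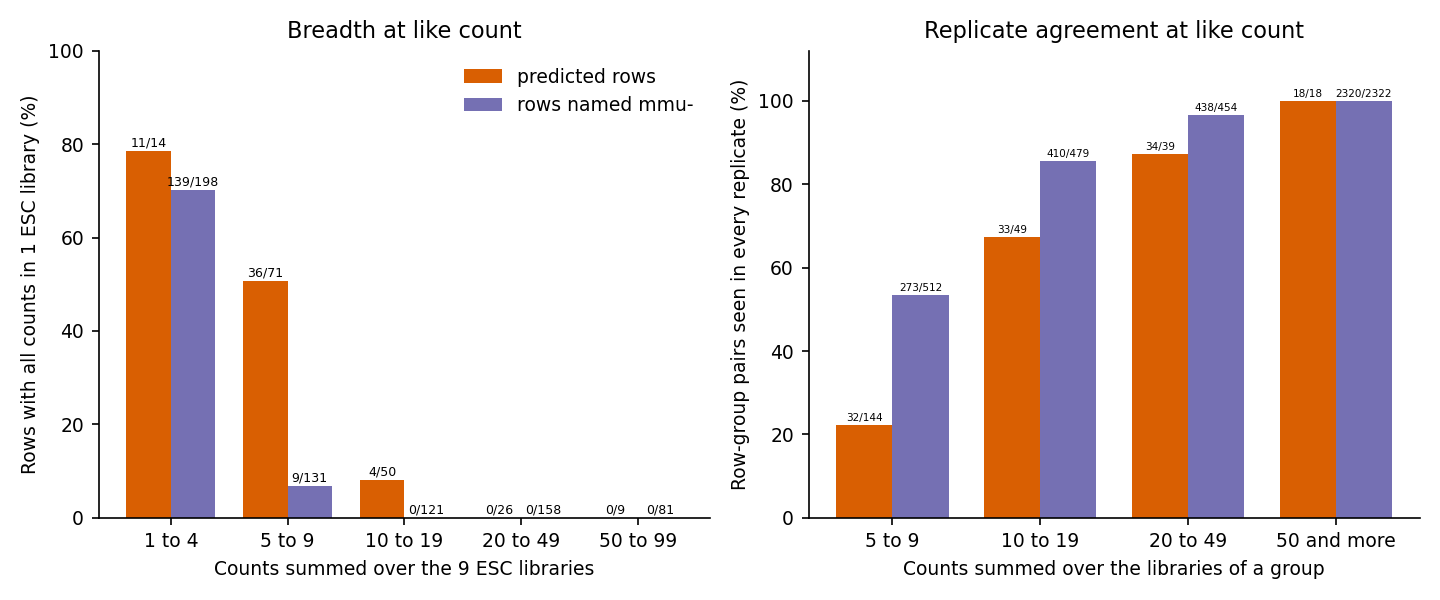
Left, percent of rows whose counts all lie in 1 of the 9 ESC libraries, by the row's summed ESC count, for predicted rows and rows named mmu-; right, percent of row and group pairs with a count in every replicate, by the pooled count in the group. Fractions above the bars give the rows; the kinds differ most at 5 to 9 counts (36 of 71 against 9 of 131 on the left, 32 of 144 against 273 of 512 on the right).

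Some single-library rows had identical counts. There were 10 sets of predicted rows with the same counts in all 12 libraries, holding 28 rows, and in 9 of the sets each row had counts in 1 library. The largest comprised novel_370, novel_635, novel_863, novel_870, novel_901 and novel_914, each with 8 counts in A129-17 replicate 1 and 0 elsewhere. novel_367, novel_825, novel_869 and novel_897 each had 7 counts in A129-6 replicate 3. novel_347, novel_862 and novel_893 had 7 counts in A129-17 replicate 2, and novel_903, novel_925 and novel_927 had 7 in A129-17 replicate 1. The sets of 2 were novel_278 with novel_910, novel_329 with novel_415, novel_615 with novel_907, novel_638 with novel_687, novel_844 with novel_854, and novel_799 with novel_840, the last pair with 7 counts in A129-6 replicate 3 and 1 in A129-2 replicate 1. Whether such rows are copies that share reads was not tested, and at counts this low equal values can also be met by unrelated rows. Identical rows seen in 5 or more libraries numbered 0 among predicted rows and 14 among mmu- rows. Far fewer predicted than mmu- rows were seen that widely (in all 12 libraries, 1 against 328), so these counts make no contrast. Identical mmu- rows seen in fewer libraries are not given here.

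Restriction to a group was measured as the share of the 5 groups' summed CPM that the highest group held, with a row called restricted from 80% upward (an even row has 20%). By this measure 89 of 183 predicted rows (48.6%) were restricted, against 381 of 1366 mmu- rows (27.9%). Weighted to the predicted rows' levels of abundance, the mmu- figure was 31.5%. Below a mean of 0.1 CPM, 39 of 51 predicted rows (76.5%) and 177 of 269 mmu- rows (65.8%) were restricted. Between 0.1 and 1 CPM the counts were 44 of 115 (38.3%) and 65 of 355 (18.3%), between 1 and 10 CPM 2 of 10 (20%) and 55 of 262 (21.0%), and between 10 and 100 CPM 4 of 7 (57.1%) and 32 of 230 (13.9%). These shares are descriptions with no test, and the upper bins hold few predicted rows. Predicted rows also had to gather a stack of reads to be listed, and the part of that selection here was not tested.

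The restricted rows were spread unevenly over the groups. Of the 89 restricted rows, 38 were restricted to A129-17, 23 to A129-6, 17 to A129-2, 7 to RS and 4 to R1, whereas the restricted mmu- rows were mostly of RS (147) and R1 (122). Of the 38 rows of A129-17, 26 had a count in 1 library only and 3 had a count in both libraries of the line. Of the 7 rows of RS, 5 had a count in all 3 spermatid libraries. The other 2 were novel_739, and novel_885 with 1 count in RS against 3 in A129-6. At the depth of RS 1 count is 1.77 pooled CPM, so restriction to RS and the abundance bins depend on depth too. Among the rows highest in RS, novel_395, novel_522 and novel_885 had 1 RS count each. Over all groups 50 of the 89 restricted rows (56.2%) were single-library rows, against 152 of 381 (39.9%) for mmu-. Among rows seen in at least 2 libraries, 39 of 133 predicted rows (29.3%) were restricted, and weighted to their abundance 17.8% of mmu- rows, an alternative added after the data were seen. Taking the haploid lines as 1 kind of cell, 102 predicted rows (55.7%) had counts in the haploid lines and none in R1 or RS, against 186 mmu- rows (13.6%). These shares are over all rows and not at like abundance, with median summed counts of 10 for predicted and 66.5 for mmu- rows. The part of abundance in this contrast was not tested. Of those 102 rows 0 had a count in all 7 haploid libraries and 47 had counts in 1. The 186 mmu- rows were much alike in this, with 3 in all 7 and 85 in 1.

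**Figure D3:**
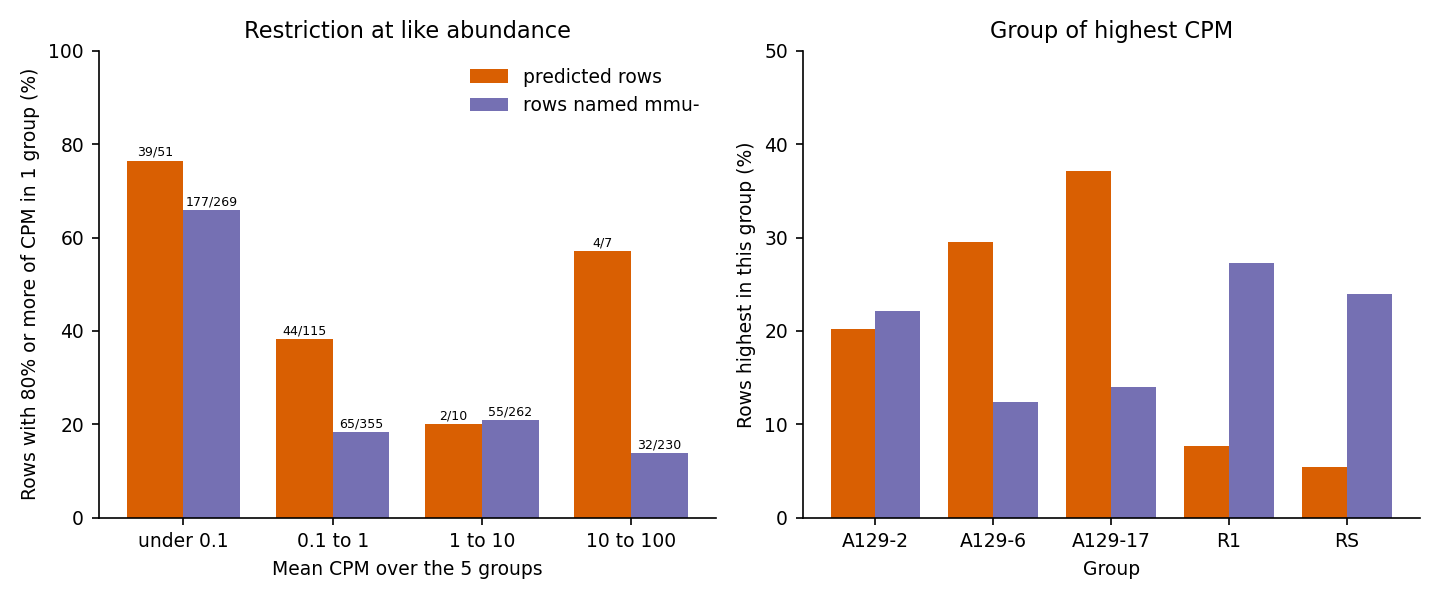
Left, percent of rows with 80% or more of their CPM in 1 of the 5 groups, by the row's mean CPM; fractions give the rows, for example 44 of 115 predicted and 65 of 355 mmu- rows between 0.1 and 1 CPM. Right, percent of rows whose highest CPM is in each group: A129-17 for 37.2% of predicted rows and 14.1% of mmu- rows, RS for 5.46% and 24.0%.

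In CPM, novel_697 and novel_213, which were seen only in spermatids, had the highest levels of any predicted row in any group. Of 183 predicted rows 13 had a count in RS, and 5 of these had none in any ESC library. novel_697 had 30, 51 and 85 counts in RS replicates 1, 2 and 3 and 0 in each of the 9 ESC libraries, which is 321 ± 194 CPM (SD, n = 3). Set against a floor of 3 counts over the lower group, its pooled RS level was 4508-fold above the haploid lines and 1644-fold above R1. Such folds use total counts and the RS level as counted, so they are not lower bounds. Under TMM, the scaling of the tests below, novel_697 was at 141 CPM in RS and its folds would be smaller. novel_213 had 37, 29 and 26 counts, or 165 ± 19.1 CPM, with folds of 2498 and 911 by the same measure. novel_703 had 18, 8 and 8 counts (57.8 ± 14.0 CPM), with folds of 923 and 337. novel_827 had 4, 6 and 6 counts, with folds of 434 and 158, and novel_739 had 8, 3 and 0, with folds of 299 and 109. The first 4 of these rows had a count in all 3 RS libraries, while novel_739 was at 0 in RS replicate 3. The rows were picked at 0 in ESC, so those 4 could not overlap the ESC libraries. Together the 5 rows made up 90.7%, 86.6% and 89.9% of the predicted counts of the spermatid replicates. Among rows with a count in RS, 5 of 13 predicted rows (38.5%) and 47 of 645 mmu- rows (7.29%) had none in ESC. Of these, 4 of the 5 and 23 of the 47 had a count in every RS library. Predicted rows are listed through their reads and mmu- rows are not, and the part of that selection in this contrast was not tested. The 2 kinds were not matched on abundance here, and its part was not tested either. Markers of differentiated lineages, blood, endothelium and gonadal somatic cells were also higher in the spermatid libraries, and their part in these rows was not tested. In bulk RNA, fewer cells of a type and less RNA per cell cannot be told apart.

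A further 8 rows had counts in both spermatids and ESC. novel_221 was found in every library, with 13 and 17 counts for line A129-2, 2, 14 and 2 for line A129-6, 5 and 8 for line A129-17, 6 and 12 in R1, and 7, 10 and 11 in RS. Given the depths, its level was 53.0 ± 21.1 CPM in RS (n = 3), 1.05 ± 0.37 in R1 (n = 2) and 1.56 ± 0.98 over the haploid lines (SD of 3 line means), and all 3 spermatid libraries were above all ESC libraries. The other 7 rows had 3, 5 and 3 counts in all in RS replicates 1, 2 and 3. novel_64 had 0, 2 and 0, novel_99 had 0, 1 and 1, novel_409 had 0, 1 and 0 and novel_207 had 1, 0 and 2. RS replicate 2, which held all the spermatid counts of novel_64 and novel_409, was also the spermatid library with most counts of the miR-290 cluster (0.678% against 0.00985% and 0.0432%), and the part of ESC-type RNA in those counts was not tested.

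The R1 libraries were led by novel_64 and novel_99. novel_64 had 934 and 1064 counts in R1, 41 and 95 for line A129-2, 114, 95 and 80 for line A129-6, and 13 and 43 for line A129-17. It made up 55.6% and 52.9% of the predicted counts of the R1 libraries. novel_99 had 558 and 714 counts in R1, 77 and 135 for line A129-2, 74, 118 and 28 for line A129-6, and 55 and 67 for line A129-17. For both rows each R1 library stood above each haploid library. The markers of differentiated lineages were also higher in R1 (3318 to 3367 CPM, against 647 to 1094 in the haploid libraries), and their part in these rows was not tested. In R1 the third row was novel_409, at 44 counts over both libraries.

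Pooled over the lines, the haploid libraries were led by novel_409, novel_99 and novel_64, while in A129-17 novel_442 (5.44 CPM) stood above novel_64 (4.48 CPM). novel_409 had 85 and 60 counts for line A129-2, 84, 98 and 134 for line A129-6, 143 and 116 for line A129-17, and 20 and 24 in R1. It was the first predicted row of A129-6 (15.2 CPM over the pooled libraries) and of A129-17 (20.7 CPM), and the second of A129-2 (11.3 CPM) after novel_99 (16.5 CPM). novel_442 had 28 and 21 counts for line A129-2, 19, 24 and 15 for line A129-6, 42 and 26 for line A129-17, 13 and 7 in R1 and 0 in RS. Both rows were present in every ESC library. novel_207 had 26 and 28 counts for line A129-2, 14, 6 and 1 for line A129-6, 10 and 11 for line A129-17 and 15 and 10 in R1, a profile that overlapped between the haploid lines and R1.

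**Figure D4:**
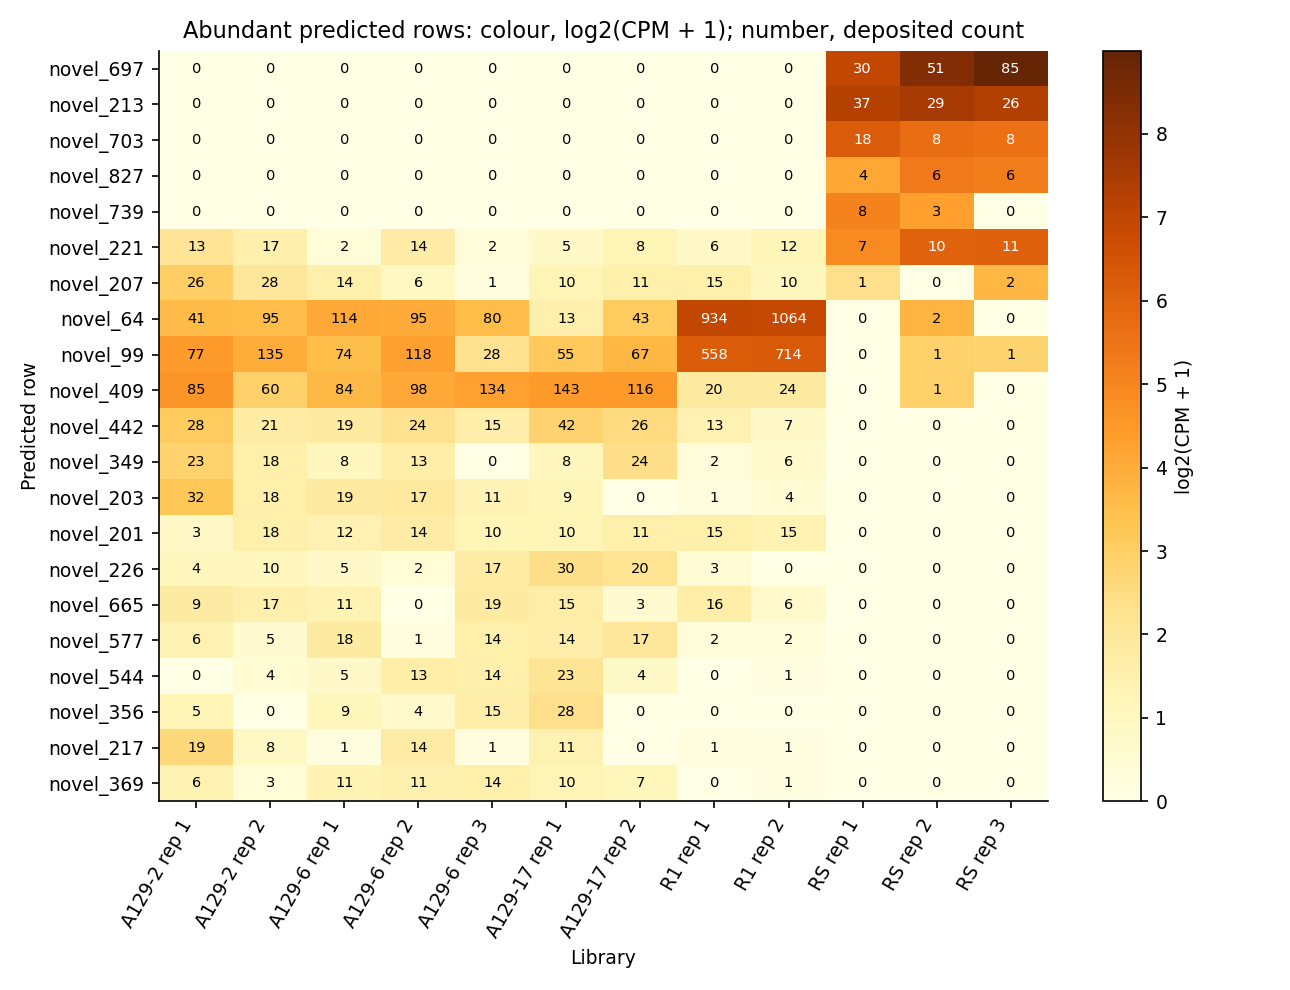
The 21 predicted rows of highest mean CPM over the 5 groups (rows) in the 12 libraries (columns); colour gives log2(CPM + 1) and the number is the deposited count. novel_697 to novel_739 have counts in RS only, novel_64 and novel_99 are highest in R1 (934 and 1064, 558 and 714 counts), and novel_409 is highest in the haploid lines (60 to 143 counts, against 20 and 24 in R1).

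How the haploid lines differed from R1 was tested with edgeR's quasi-likelihood test on the whole table, fitted to the 9 ESC libraries and scaled by TMM, which sets the library sizes so that most rows do not differ. Only 22 of the 183 predicted rows passed the filter on low counts, and the others were tested only in the alternative with no filter, where 178 predicted rows were tested and 14 called, 10 as higher in the haploid lines and 4 as lower, against 532 of all 1497 rows. Of all 757 rows tested 70.5% were called at an adjusted p under 0.05, 35.3% as higher in the haploid lines and 35.3% as lower. Of the 22 predicted rows, 12 were called (54.5%), 10 as higher and 2 as lower. A row could pass the filter through the haploid group alone, so these counts do not describe the 183. The median log2 difference was 0.329 over all rows tested and 2.58 over the predicted rows that passed. Other scalings placed the median of all rows between 0.084 (RLE, the scaling of DESeq2) and 0.642 (upper quartiles), so differences are to be read against that shift.

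novel_64 and novel_99 fell. novel_64 went from 119 ± 4.54 CPM in R1 (n = 2) to 9.83 ± 4.66 in the haploid lines (SD of 3 line means), with a log2 difference of -3.61 (SE 0.33, adjusted p = 1.32e-07). novel_99 went from 75.5 ± 3.32 to 12.9 ± 4.26 CPM, with a log2 difference of -2.51 (SE 0.33, adjusted p = 6.02e-06). novel_409 rose from 2.62 ± 0.0035 to 16.9 ± 3.33 CPM (log2 2.79, SE 0.53, adjusted p = 0.000243), and novel_442 from 1.23 ± 0.67 to 4.38 ± 1.35 (log2 1.86, SE 0.65, adjusted p = 0.0190). The lowest haploid library of novel_409 had 60 counts against at most 24 in R1. That of novel_442 was at 2.06 CPM, close to the 1.70 CPM of R1 replicate 1. The log2 difference of novel_442 was 1.34 without R1 replicate 2 and 2.55 without R1 replicate 1, so it leaned on single R1 libraries.

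The other 8 rows that rose rested on few R1 counts. novel_369 had 62 counts in the haploid libraries, at least 3 in each, and 1 in R1, a ratio of pooled levels of 22.6 (95% interval 3.91 to 907, counting error only). novel_544 had 63 and 1 (ratio 23.0, interval 3.98 to 922), novel_553 had 55 and 1 (20.1, interval 3.45 to 807), and novel_226 had 88 and 3 (10.7, interval 3.54 to 52.9). novel_203 had 106 and 5 counts (log2 2.82, SE 1.08, adjusted p = 0.0300) and novel_577 had 75 and 4 (log2 2.78, SE 1.12, adjusted p = 0.0364). novel_31 and novel_356 had 0 counts in R1 and 40 and 61 in the haploid lines. Their pooled haploid levels were 4.86-fold and 7.42-fold above the R1 floor of 3 counts. These rows were uneven within the lines: novel_356 had 28 and 0 counts in the A129-17 replicates and 5 and 0 in those of A129-2, and novel_203 had 9 and 0 in A129-17. Without R1 replicate 1 the predicted rows called numbered 5 and without R1 replicate 2 they numbered 3, with the lone R1 library then assumed to vary like the other groups. All calls fell in the same fits, to 422 of 842 and 405 of 838 rows tested, and 37 and 36 predicted rows were tested. Single haploid libraries mattered too. Without A129-17 replicate 1, novel_203, novel_553 and novel_356 were not called, with fitted log2 differences of 0.87, 2.00 and 3.69. The A129-17 library left had 0 counts of each, so these fitted values do not measure the size of the change. In the same fit novel_544 lost its call at 3.32. Without A129-2 replicate 1, novel_356 was not called at a fitted 4.57, where the A129-2 library left had 0 counts. There novel_203, novel_31, novel_553 and novel_577 also lost their calls. Without A129-2 replicate 2, novel_544 was not called at a fitted 2.54, again with 0 counts in the A129-2 library left. The calls of novel_226 and novel_553 were lost as well. novel_577 was also lost without A129-6 replicate 1 and without A129-17 replicate 2. Other settings of the edgeR test mattered as well. novel_577 lost its call with RLE scaling (adjusted p = 0.057) and with the replicate number as a block (adjusted p = 0.0525). novel_553 lost its call with that block (adjusted p = 0.0513). novel_64, novel_99 and novel_409 kept their call and direction without each of the 9 libraries in turn and under every other setting tried.

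**Figure D5:**
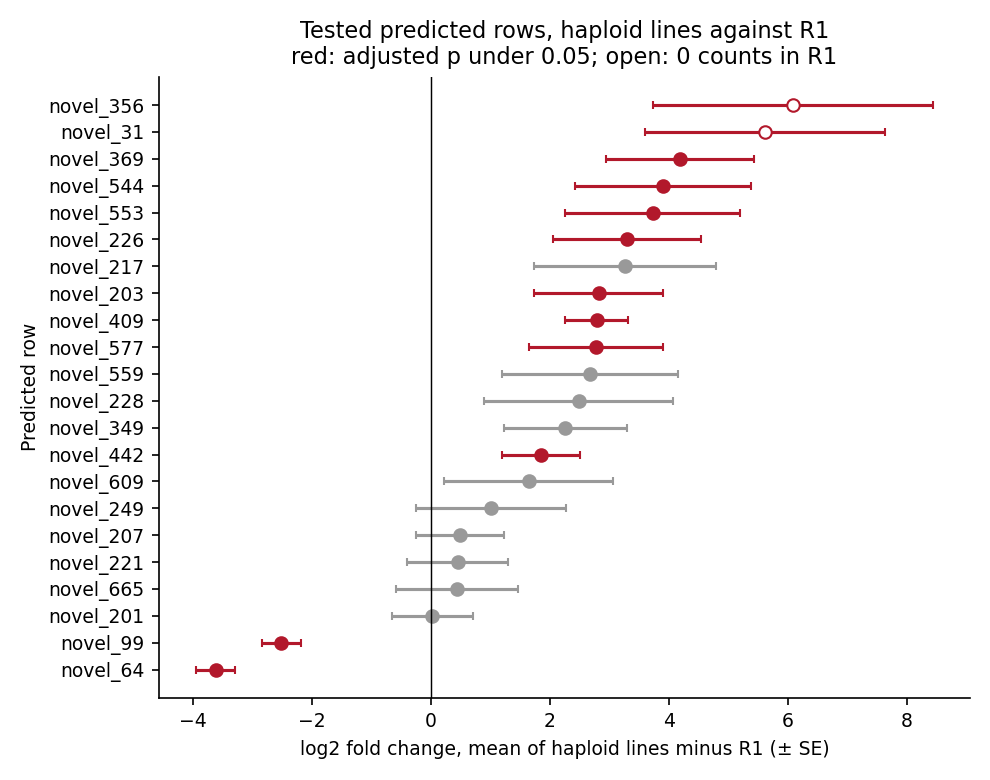
Log2 difference between the mean of the haploid lines and R1, with its SE, for the 22 predicted rows tested; red marks an adjusted p under 0.05 and open circles mark rows with 0 counts in R1, whose fitted value is not a bound. novel_64 (-3.61) and novel_99 (-2.51) lie on the R1 side and 20 rows lie above 0, of which 10 were called.

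Comparisons with spermatids were fitted to all 12 libraries, where 25 predicted rows passed the filter. Between the haploid lines and RS, 65.4% of the 806 rows tested were called, 44.5% as higher in the haploid lines and 20.8% as lower. Of the 25 predicted rows 9 were called (36.0%), 4 as higher and 5 as lower. The 5 lower rows were novel_697, novel_213, novel_703 and novel_827, with 0 counts in the haploid lines (adjusted p of 4.29e-06 or less, in rows that passed the filter through RS alone and so had to differ), and novel_221 (log2 -3.52, SE 0.64, adjusted p = 4.24e-05). The 4 higher rows depended on the scaling, since TMM factors were 1.89 to 2.63 in the RS libraries and 0.469 to 1.03 in the haploid libraries. novel_409 was higher by log2 4.89 (SE 0.92, adjusted p = 6.02e-05), and by its pooled counts 720 against 1 the ratio was 8.84 (95% interval 1.58 to 350). novel_99 had a log2 difference of 3.46 (SE 0.78, adjusted p = 0.000430) and a ratio of 3.40 (interval 0.937 to 28.1), and novel_64 3.03 (SE 0.86, adjusted p = 0.00349) and 2.95 (interval 0.813 to 24.4). novel_442 was called (adjusted p = 0.00563), but its 175 haploid counts, 4.38 CPM over the lines, lie below the 5.30 CPM that 0 counts in RS allow, so no fold is given. With total counts alone as the scaling, novel_409 was the only row of the 4 still called (adjusted p = 0.286 for novel_64, 0.126 for novel_99 and 0.096 for novel_442).

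R1 was compared with spermatids in the same fit. Of the 806 rows tested 53.0% were called, 33.6% as higher in R1 and 19.4% as lower, and of the 25 predicted rows 7 were called (28.0%), 2 as higher and 5 as lower. novel_64 was higher in R1 (log2 5.78, SE 0.81, adjusted p = 1.59e-06, 1998 against 2 counts, ratio 33.6, interval 9.29 to 278), and so was novel_99 (log2 5.12, SE 0.78, adjusted p = 5.21e-06, 1272 against 2 counts, ratio 21.4, interval 5.91 to 177). novel_221 was lower in R1 (log2 -4.80, SE 0.97, adjusted p = 0.000189), as were novel_697, novel_213, novel_703 and novel_827 with 0 counts in R1 (adjusted p of 0.000170 or less), which again passed the filter through RS alone. The calls of novel_703 and novel_827 were lost with DESeq2 (adjusted p = 0.0535 and 0.0826), at fitted differences of -10.5 and -9.51 against -9.91 and -8.87 in edgeR, which for rows at 0 in R1 are no bounds. novel_409 (log2 1.27, SE 1.34) and novel_442 (log2 5.09, SE 3.54) were tested and not called (adjusted p = 0.453 and 0.243). The comparison of the haploid lines with RS and that of R1 with RS share the spermatid libraries. novel_739, at 0 in RS replicate 3, did not pass the filter.

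The 3 haploid lines were compared by an F-test over the lines. Of 757 rows tested 3.83% were called, and 0 of the 22 predicted rows, with 2 at an unadjusted p under 0.05 in edgeR and 0 called by DESeq2. The smallest p-values belonged to novel_609, novel_64 and novel_207 (adjusted p = 0.112, 0.163 and 0.246). novel_609 had 12 and 10 counts in line A129-17, against 2 and 1 for line A129-2 and 2, 0 and 0 for line A129-6. novel_64 ran from 4.78 ± 4.09 CPM in A129-17 (n = 2) and 10.7 ± 0.43 in A129-2 (n = 2) to 14.0 ± 2.61 in A129-6 (n = 3), and without A129-17 replicate 2 it was called (adjusted p = 0.0241). With no filter on low counts, 178 predicted rows were tested between the lines and 0 were called (12 at an unadjusted p under 0.05), against 82 of all 1497 rows.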

How the data were processed

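Counts per known or predicted miRNA were deposited by the authors as raw counts, with no normalisation, in 1 table whose 12 columns matched the sample titles. Per the labels' protocols, libraries were made by 3′ and 5′ adapter ligation and PCR and read as single ends; Bowtie 0.12.9 and DESeq2 are named per the submitters' processing notes. No predictor, build or miRBase release is stated there, nor how reads with several matches were treated. Rows were taken by the prefix novel_. The members and lists were chosen with earlier results of these data known.

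Shares and detection were computed in Python 3.11.15 with SciPy 1.17.1. Tests used R 4.3.3 and edgeR 4.0.16 (filterByExpr with minimum count 10 and minimum total 15, TMM, quasi-likelihood F-test on group means, Benjamini-Hochberg over all rows tested, threshold 0.05), with DESeq2 1.42.0 as an alternative. SEs were derived from the fold change and F. The test was tested on simulated data whose changed rows were more abundant than most predicted rows, so changes in low-count rows were not covered. Named rows were, by rule, the 10 of highest mean CPM, the 3 highest per group, the 5 largest called changes in each direction (rows at 0 apart), the 3 smallest p between lines and identical rows; other rows that were called are named after their values were seen. Replicate pairs of a group differed by far more than sampling noise (chi-square per degree of freedom of at least 60.9), so each was kept. Intervals and floors (3 counts) cover counting error only, since PCR reads without molecular identifiers are not independent molecules.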

Additional observations from a re-analysis of the deposited data

How the results depend on the processing

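The number of predicted rows called was 12 for the haploid lines against R1, 9 for the haploid lines against RS, 7 for R1 against RS and 0 between lines. Under the stricter filter, which left 3 predicted rows to test, it was 3, 3 and 2 for the first 3 comparisons. Leaving out 1 library gave 3 to 15, 8 to 10, 6 to 7 and 0 to 1. With the replicate block it was 11, 10, 7 and 0. The replicate numbers were taken only as names of libraries. Of 12 same-numbered pairs of ESC libraries 1 had a correlation of deviations above 0.1 (range -0.177 to 0.139). In groups of 2 libraries the deviations mirror each other, so these values are not independent and cannot settle whether the numbers mark batches. Scaling moved the median log2 difference of all rows in the haploid lines against RS from 2.79 to 1.29 with total counts and 1.43 with upper quartiles, with 46.1% and 48.6% of called rows then higher instead of 68.1%, and 1 predicted row higher instead of 4. With all 12 libraries in the fit, 66.0% of called rows were higher in the haploid lines against R1 instead of 267 of 534, and 13 predicted rows instead of 10. Of R1 against RS, 71.7% were higher with TMM from mmu- rows and 49.6% with upper quartiles, against 63.5%, with medians of 2.62 and 1.16 against 2.04, and 2 predicted rows were higher in each. No direction of a called predicted row reversed.

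The difference in rows detected at equal depth turned to -0.834 (haploid minus R1) and -4.30 (haploid minus RS) when 3 counts were asked for. For R1 minus RS it turned from -2.66 to 43.3 without thinning and to 0.394 with the miR-290 cluster removed first. The percent of restricted rows, 48.6, went to 65.6 at a share of 0.6, 33.9 at 0.95, 75.4 over 3 kinds of cell, 35.1 with at least 10 counts in the highest group and 29.3 with counts in at least 2 libraries. The mmu- rows, weighted to the same abundance, moved in the same directions from 31.5 to 54.3, 23.5, 66.8 and, with counts in at least 2 libraries, 17.8. Over 3 kinds of cell the 2 figures lay closer (75.4 and 66.8) than over the 5 groups (48.6 and 31.5). With at least 10 counts in the highest group the mmu- figure was 15.7 unweighted. Depth limits the spermatid libraries most.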

Other observations

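The numbers in the names of the predicted rows ran from 31 to 927 and were not consecutive. Across the 183 rows, Spearman's rho between this number and the summed count was -0.438, and between the number and the count of libraries with the row -0.534, given as descriptions since rows are not replicates. The 13 rows numbered below 250 had a median of 92 summed counts, and the rows from 250 upward a median of 9.5. Both leading R1 rows (novel_64 and novel_99) were among the 13, as was novel_213 of the 5 rows seen only in spermatids.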
